A study of Mus musculus with 92 samples.

Results

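Interferon-linked genes of ADP-ribosylation, Parp9, Parp10, Parp11, Parp12, Parp14 and Dtx3l, were followed through RNA-seq of mouse macrophages and of the cells they came from. They were chosen by name and are 6 of the 29956 named genes in the deposited table. The table holds 92 libraries in 25 groups, 3 to 9 libraries to a group. The question for each was where among these groups it was high, and whether it moved with residence in the brain, with loss of ADAR1 and with JAK inhibition.

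PARP proteins transfer ADP-ribose from NAD+ onto other molecules, and PARP10, PARP11, PARP12 and PARP14 are enzymes that add a single unit. PARP9 and PARP14 also carry macrodomains, which bind ADP-ribose, and PARP9 works bound to DTX3L, a ubiquitin ligase of the Deltex family. Type I and type II interferons induce these genes in macrophages through JAK kinases and STAT factors, and several of the proteins are known for restricting viruses or for tuning the interferon response.

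The groups labelled wild type, from FVB mice, were BM progenitors (bone marrow progenitors, 3 libraries), BM monocytes (3), and BMD macrophages grown from bone marrow progenitors for 7 days in M-CSF (3). ER-Hoxb8 progenitors (3), ER-Hoxb8 day 4 cells (3) and ER-Hoxb8 macrophages after 7 days in M-CSF (3) came from FVB mice heterozygous for Cas9, so Cas9 and cell source cannot be told apart in comparisons of these groups with bone marrow groups. ER-Hoxb8 cells are marrow progenitors that a retrovirus coding for an estrogen-dependent Hoxb8 keeps immature while beta-estradiol and GM-CSF are present, and they mature once estradiol is withdrawn. MLCs (microglia-like cells) were BMD cells (6 libraries) or ER-Hoxb8 cells (6) injected into the brains of newborn Csf1r-/- mice, hosts that lack microglia of their own, and sorted back out. The ER-Hoxb8 MLCs are labelled wild type, without Cas9, and their library names fall into GFPHox (replicates 1 to 3) and WTHox Lo (replicates 4 to 6), which the labels do not explain. Microglia (9 libraries) came from brains of wild type FVB mice without injection. Their replicates 8 and 9 have YSWT library names, which the labels do not explain either. The Adar1 KO groups were ER-Hoxb8 lines heterozygous for Cas9 and carrying Adar1 guide sgRNA 1 or sgRNA 2, and NTC lines carried a non-targeting guide. These lines were sorted pools, not clones, and their libraries came from progenitors (3 for each of the 3 lines) and from macrophages after 7 days (3 NTC, 3 sgRNA 1 and 5 sgRNA 2). NTC and Adar1 KO sgRNA 1 macrophages were also grown with baricitinib, an inhibitor of JAK1 and JAK2, at 0, 0.0006, 0.016, 0.4 or 10 uM (3, 3, 4, 4 and 3 NTC libraries, and 3, 3, 3, 3 and 4 Adar1 KO libraries). The sample labels give these doses, while the treatment text lists 0.00064 uM and 0.16 uM for the second and the third, and the doses are given here as on the samples.

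Values are log2 CPM (library-size-scaled counts on a log2 scale, adjusted by TMM), and a difference between groups is a difference of mean log2 CPM. The table was built in 6 normalization sets, each with a lowest value of its own, and groups were compared only within a set. From these lowest values the mean depth of a set was about 13.7 M to 40.6 M counts, at which 3 counts are 0.0739 to 0.218 CPM. Each of the 6 genes lay above that in all 92 libraries. The lowest value was -1.07 for Parp12, or 0.428 CPM, in ER-Hoxb8 progenitors replicate 3. "Higher" and "lower" calls are limma tests with Benjamini-Hochberg adjusted p under 0.05 over all genes tested in a set, and all 6 genes passed the filter on low values in each. The study describes the libraries of the bone marrow, ER-Hoxb8 and brain groups as biological replicates and the drug cultures as differentiated separately. Each NTC or Adar1 KO line was a pool, so p-values there measure the spread between its cultures.

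Marker genes held to the labels in the NTC and Adar1 KO lines, with a progenitor list (Kit, Cd34, Mpo) high in progenitors and a macrophage list (Csf1r, Adgre1, Cd68, Itgam) high in macrophages. ER-Hoxb8 progenitors did not hold to theirs in the same way, with a summed progenitor list from 25.7 through a median of 53.9 to 2357 CPM against 5308 to 11056 CPM in BM progenitors and 30.8 to 35.1 CPM in day 4 cells. Their macrophage list ran from 446.5 to 4652 CPM. The summed level of 4 microglia genes (P2ry12, Tmem119, Sall1, Siglech) was 24934 to 32293 CPM in microglia, 1209 to 3566 CPM in BMD MLCs and, in ER-Hoxb8 MLCs, 1059 to 2878 CPM in the GFPHox and 47.8 to 324 CPM in the WTHox Lo libraries. The libraries of MLCs carried markers of other cells. The sum of 4 neutrophil genes was 136 to 25501 CPM in ER-Hoxb8 MLCs and 2263 to 19354 CPM in BMD MLCs, against 209 to 3355 CPM in microglia. A pair of libraries stood apart in the 6 genes. Adar1 KO 0.4 uM replicate 2 had a median of 3.91 above the other libraries of its group, and in microglia replicate 8 the median difference from its own group was -1.79. That microglia library also held oligodendrocyte markers at 628 CPM, astrocyte markers at 264 CPM and neuron markers at 21.1 CPM, where the other 8 held at most 55.7, 5.14 and 3.14 CPM. Results that rest on them are given with and without them. NTC macrophages replicate 2 was normalized alone and entered no main test.

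Adar mRNA, the target of the guides, was not lower in untreated Adar1 KO cells. It was 7.04 ± 0.10 log2 CPM in Adar1 KO sgRNA 1 macrophages (SD, n = 3) and 5.70 in NTC macrophages (n = 2), a difference of 1.34 (limma, Benjamini-Hochberg adjusted p = 0.000976). Adar is itself interferon-induced and a guide can disrupt a protein without lowering its mRNA, so this level does not check the edit. With 10 uM baricitinib Adar was called lower in Adar1 KO sgRNA 1 than in NTC macrophages, by 1.36, where 45.3% of all genes were called. It ran from 1.55 to 2.91 log2 CPM in Adar1 KO and from 3.22 to 3.70 in NTC at that dose. The cause was not tested.

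Parp14, Dtx3l and Parp9 are neighbours on mouse chromosome 16, and Dtx3l and Parp9 are arranged head to head on opposite strands. Their annotated exons share 458 bases, 9.4% of the Parp9 exons and 8% of the Dtx3l exons, and reads from that stretch cannot be told apart without strand. Parp11 and Parp12 lie on chromosome 6 and Parp10 on chromosome 15, where 4.8% of its exonic bases are shared with Plec. RefSeq start sites were at hand for Dtx3l, Parp11 and Parp12 (3 of the 6 genes, 4 start sites). Parp11 has start sites several kilobases apart, and its upstream windows are shown because the first but not the second holds the motifs that interferon-activated factors are known to bind. Both are on the plus strand of GRCm38.p6, the first at chr6:127446590-127446839 and the second at chr6:127453377-127453619. Capitals mark a pair of overlapping matches, to GAAANNGAAA read on the other strand as TTTCNNTTTC (the core of an interferon-stimulated response element) and to TTCNNNGAA (the core of a gamma-activated site).
Parp11 first start: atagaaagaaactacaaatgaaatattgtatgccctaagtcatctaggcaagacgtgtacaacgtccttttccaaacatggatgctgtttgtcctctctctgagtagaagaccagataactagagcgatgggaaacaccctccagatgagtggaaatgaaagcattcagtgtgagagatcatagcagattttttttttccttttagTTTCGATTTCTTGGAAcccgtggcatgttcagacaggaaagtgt
Parp11 second start: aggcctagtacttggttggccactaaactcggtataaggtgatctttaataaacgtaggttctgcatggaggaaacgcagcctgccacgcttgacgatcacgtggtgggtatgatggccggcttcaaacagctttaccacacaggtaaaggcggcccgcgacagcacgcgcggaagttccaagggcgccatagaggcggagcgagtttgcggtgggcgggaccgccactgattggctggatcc
Of 32851 windows of 250 bases before a start site in the same build, 2.98% held the first motif and 7.02% the second on either strand. The upstream windows of Dtx3l and Parp12 held no match, which says only that these letters are not there.

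The first comparison was among the precursor cells. None of the 6 genes passed the test between BM monocytes and BM progenitors, in which 13.8% of all genes were called. Without adjustment 2 of the 6 had p under 0.05. The groups did not overlap for 4 of the 6 genes, and for 49.1% of all genes. Parp14 was 3.17, 3.47 and 3.56 log2 CPM in BM progenitors and 4.77, 4.42 and 4.50 in BM monocytes, a difference of 1.17 (SE 0.37, limma, Benjamini-Hochberg adjusted p = 0.0574). Parp9 was 3.99, 4.54 and 4.55 in the progenitors and 5.15, 5.22 and 4.85 in the monocytes. Both stood higher in every monocyte library, and Dtx3l and Parp12 did so too. Parp10 and Parp11 overlapped between these groups.

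ER-Hoxb8 progenitors overlapped with BM progenitors in all 6 genes. None of the 6 was called in that comparison by limma, none had an unadjusted p under 0.05, and 25.5% of all genes were called. Parp12 varied most, at 1.33, 3.08 and -1.07 in ER-Hoxb8 progenitors, and replicate 3 was the lowest of its group in all 6 genes. At day 4 of differentiation Parp12 was 2.57, 2.96 and 2.71, a difference of 1.63 (SE 0.82, adjusted p = 0.549). No gene of the table was called between day 4 cells and ER-Hoxb8 progenitors by limma (0% of 12056 genes), though 1129 genes and 1 of the 6 had an unadjusted p under 0.05. By the progenitor list given above, the ER-Hoxb8 progenitor libraries were mixed and overlapped with day 4 cells. This lack of calls therefore cannot show that differentiation leaves the 6 genes unchanged.

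Grown to macrophages in vitro, the cells from both sources had overlapping levels of the 6 genes. Parp9, the partner of Dtx3l, was 4.71, 4.91 and 4.98 log2 CPM in BMD macrophages and 5.10, 4.74 and 4.62 in ER-Hoxb8 macrophages. Dtx3l was 5.68, 5.65 and 5.77 in the first and 6.41, 6.30 and 5.72 in the second. The groups overlapped for each of the 6 genes, with differences of -0.26 to 0.44. None was called, none had an unadjusted p under 0.05, and 1.51% of all genes were called.

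After residence in the brain the 6 genes stood apart between the donor types. All 6 were higher in ER-Hoxb8 MLCs than in BMD MLCs, by 1.46 to 2.22 on the log2 scale (2.74-fold to 4.65-fold), where 15.2% of all genes were called and the median over all genes was -0.22. For 5 of the 6 the groups did not overlap, as for 6.98% of all genes. In these bulk samples more transcript per cell and more cells of an expressing type cannot be told apart.

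**Figure D1:**
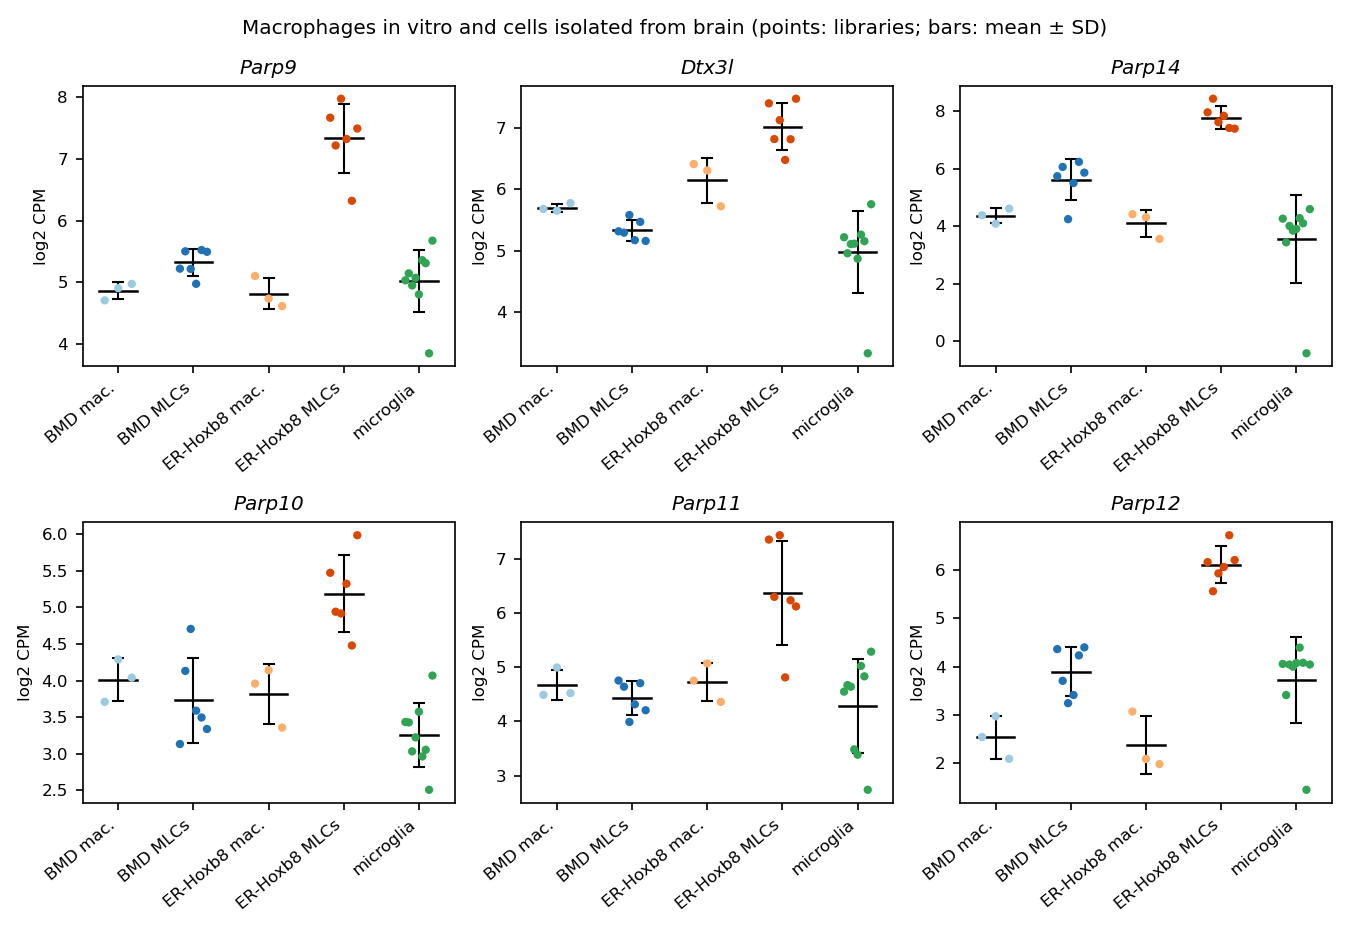
Log2 CPM of the 6 genes (one panel each) in BMD macrophages, ER-Hoxb8 macrophages, BMD MLCs, ER-Hoxb8 MLCs and microglia. Points are libraries and bars the mean ± SD. ER-Hoxb8 MLCs have the highest mean in each panel, and lie between 7.39 and 8.43 for Parp14, and microglia replicate 8 is the low point at -0.42 in that panel.

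Among the macrodomain proteins, Parp14 had a lowest, median and highest value of 4.24, 5.80 and 6.23 log2 CPM in the 6 BMD MLC libraries. In ER-Hoxb8 MLCs these were 7.39, 7.72 and 8.43, and in microglia -0.42, 4.01 and 4.59. Every ER-Hoxb8 MLC library was above every library of BMD MLCs and microglia. The difference from BMD MLCs was 2.17 (SE 0.55, limma, Benjamini-Hochberg adjusted p = 0.00844).

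Parp9 ran from 4.98 through a median of 5.36 to 5.52 in BMD MLCs and from 6.32 through 7.41 to 7.97 in ER-Hoxb8 MLCs. Its difference was 2.01 (SE 0.26, adjusted p = 3.9e-06). Dtx3l, with which it pairs, ran from 5.16 through 5.31 to 5.58 and from 6.47 through 6.97 to 7.47. Neither gene overlapped between the MLC groups, and the Dtx3l difference was 1.68 (SE 0.27, adjusted p = 9.65e-05).

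Of the enzymes without macrodomains, Parp12, a zinc finger PARP, ran from 3.24 through 3.97 to 4.40 in BMD MLCs and from 5.56 through 6.12 to 6.72 in ER-Hoxb8 MLCs. Parp11 ran from 3.99 through 4.48 to 4.75 and from 4.81 through 6.27 to 7.44, with the widest spread in ER-Hoxb8 MLCs (SD 0.96). Neither overlapped. Parp10 ran from 3.13 through 3.54 to 4.71 and from 4.48 through 5.13 to 5.99, and was the gene whose groups did overlap. The differences were 2.22 for Parp12 (SE 0.39, adjusted p = 0.000242), 1.94 for Parp11 (SE 0.41, adjusted p = 0.00178) and 1.46 for Parp10 (SE 0.31, adjusted p = 0.00178).

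Against microglia, all 6 genes were also higher in ER-Hoxb8 MLCs, by 1.94 to 4.22, in a comparison that called 33.9% of all genes. For 5 of the 6 the groups did not overlap, as for 11.3% of all genes, and for Parp11 they did. Parp14 differed most, by 4.22 (SE 0.50, limma, Benjamini-Hochberg adjusted p = 2.14e-07), or by 3.72 without microglia replicate 8. Between BMD MLCs and microglia 1 of the 6 was higher, Parp14, by 2.05 (SE 0.50, adjusted p = 0.00386), against 20.5% of all genes called. Without microglia replicate 8 the Parp14 difference was 1.55 (adjusted p = 5.44e-05). The other 5 genes differed by 0.15 to 0.48 with that library and by -0.12 (Parp12) to 0.39 (Parp10) without it, none was called either way, and all 6 overlapped.

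Set against ER-Hoxb8 macrophages in vitro, ER-Hoxb8 MLCs were higher in all 6 genes, and 34.8% of all genes were called. The macrophages are labelled Cas9 heterozygous and the MLCs wild type, so these are not the same lines. Cas9, line and the brain cannot be told apart here. Parp12 rose by 3.73 (SE 0.47, adjusted p = 1.32e-06) and Parp14 by 3.68 (SE 0.68, adjusted p = 0.000192). Parp9 rose by 2.51, Parp11 by 1.65, Parp10 by 1.37 and Dtx3l by 0.87, the last with an adjusted p of 0.0446. Without ER-Hoxb8 macrophages replicate 3, the lowest of its group in all 6 genes, 3 of the 6 were called.

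BMD cells gave fewer calls for the same step. The call was 1 of the 6, Parp12, higher by 1.36 (SE 0.47, limma, Benjamini-Hochberg adjusted p = 0.0304), against 30.6% of all genes called. Without microglia replicate 8 in the fit Parp14 was called too, by 1.25 (adjusted p = 0.00538). Leaving out BMD macrophages replicate 1 or 3, or BMD MLCs replicate 1, 5 or 6, left none of the 6 called. The test of the difference between both brain changes called 2 of the 6, Parp9 (2.05, SE 0.45, adjusted p = 0.00832) and Parp12 (2.37, SE 0.67, adjusted p = 0.0473), with 3.28% of all genes called. It called 4 without microglia replicate 8, with Parp14 at 2.43 (adjusted p = 0.00256) and Dtx3l at 1.24 (adjusted p = 0.0208). The ER-Hoxb8 change also spans the change of Cas9 label and line given above, so these cannot be told apart from the brain in that test. The comparisons in this set share groups and are not independent of each other.

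Markers of other cells differed widely between ER-Hoxb8 MLC libraries. In replicates 1 to 6 the neutrophil sum was 431, 136, 181, 11020, 25501 and 2335 CPM, and the mean log2 CPM of the 6 genes was 7.00, 6.54, 6.83, 6.31, 6.33 and 6.78. Replicates 1 to 3, with the least neutrophil signal, are the GFPHox libraries, so that signal and the unexplained library names cannot be told apart. BMD MLCs had means of 4.49 to 4.94. Some lists were higher in every ER-Hoxb8 MLC library than in any BMD MLC library, as 5 of the 6 genes were. These were astrocyte markers, at 15.8 to 31.5 CPM against 4.54 to 11.2 CPM, and endothelium markers, at 44.4 to 90.6 CPM against 10.6 to 28.2 CPM. Other lists were higher in some ER-Hoxb8 MLC libraries than in any of BMD MLCs. The summed level of B cell markers was 0.745 to 126 CPM against 0.406 to 2.98 CPM, and that of T cell markers 1.72 to 156 CPM against 0.331 to 4.90 CPM. Monocyte markers were above BMD MLCs (154 to 358 CPM) only in replicate 6, at 5729 CPM. In replicates 1 to 5 they were at 91.0 to 210 CPM. Oligodendrocyte markers stood at 47.0 to 157 CPM against 11.3 to 81.7 CPM, neuron markers at 0 to 7.52 CPM against 0 to 5.15 CPM, and border macrophage markers at 2.16 to 888 CPM against 1363 to 2194 CPM. The macrophage list was at 5010 CPM in replicate 1 and at 1522 to 3543 CPM in replicates 2 to 6, against 3772 to 6080 CPM in BMD MLCs. The part that the mix of cells had in the 6 genes' levels was not tested.

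Of 11 other PARP genes tested, none was called between ER-Hoxb8 MLCs and BMD MLCs, and of 3 other Deltex genes none was. This comparison called 15.2% of all genes. Among 5 genes that remove ADP-ribose, Macrod1 fell by 2.80. Of 13 interferon signalling genes tested, 6 were higher and 1 lower, with Irf1 higher by 2.77 and the feedback inhibitor Socs1 by 5.77, while the receptor chain Ifngr1 fell by 1.34.

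The next question was whether loss of ADAR1, which edits double-stranded RNA and keeps it from being sensed, moved the 6 genes. In progenitors it did not do so detectably. None of the 6 was called between Adar1 KO sgRNA 1 and NTC progenitors by limma, none had an unadjusted p under 0.05, and 0.936% of all genes were called. The differences were -0.17 to 0.31 and all 6 overlapped. Parp9, for one, was 4.34, 3.83 and 3.85 log2 CPM in NTC progenitors and 4.08, 4.01 and 3.80 in Adar1 KO progenitors. Dtx3l was 4.99, 4.46 and 4.70 in the first and 5.03, 4.96 and 4.83 in the second.

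**Figure D2:**
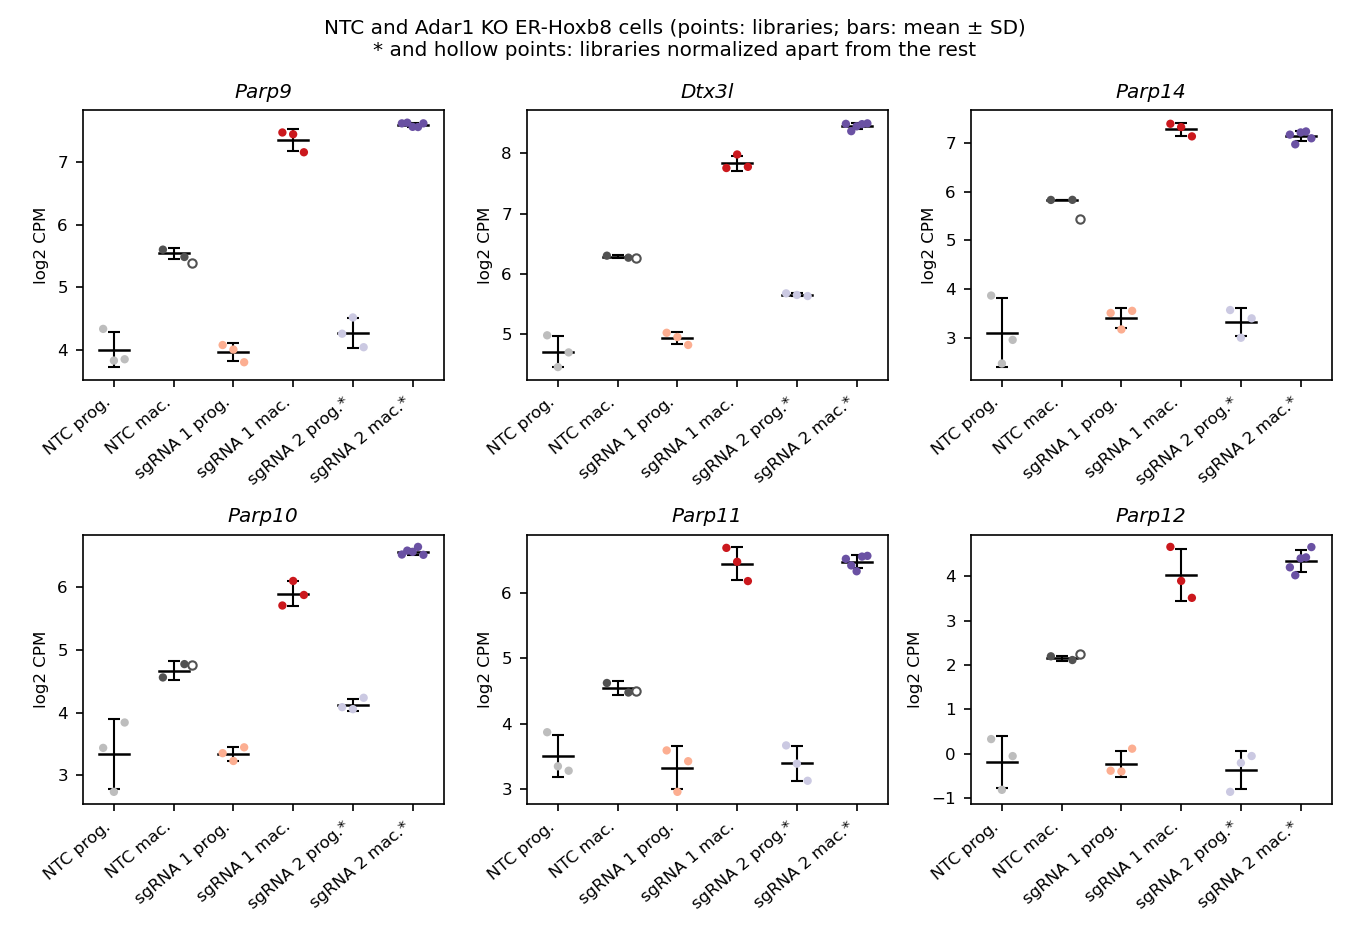
Log2 CPM of the 6 genes in progenitors and macrophages of the NTC, Adar1 KO sgRNA 1 and Adar1 KO sgRNA 2 lines. Points are libraries and bars the mean ± SD. The hollow point is NTC macrophages replicate 2 and sgRNA 2 libraries carry an asterisk, both normalized apart from the rest. Within the set they share, Adar1 KO sgRNA 1 macrophages lie above the 2 filled NTC macrophage points in each panel, as for Parp9 at 7.16 to 7.47 against 5.48 and 5.60.

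In macrophages all 6 genes were higher in Adar1 KO sgRNA 1 than in NTC, with 21.8% of all genes called. Their median difference was 1.68, beside 0.05 over all genes, and the groups did not overlap for any of the 6, nor for 52.6% of all genes. Only NTC macrophages replicates 1 and 3 entered this test.

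Parp9 was 5.60 and 5.48 log2 CPM in NTC macrophages and 7.47, 7.45 and 7.16 in Adar1 KO macrophages, higher by 1.82 (SE 0.17, limma, Benjamini-Hochberg adjusted p = 2.06e-05), or 3.52-fold. Its partner Dtx3l was 6.31 and 6.27 in NTC and 7.76, 7.98 and 7.78 in Adar1 KO, higher by 1.55 (SE 0.15, adjusted p = 2.19e-05). For both genes the gap between the groups was wider than the spread within either. Parp14 was 5.83 and 5.83 in NTC and 7.40, 7.33 and 7.14 in Adar1 KO, higher by 1.45 (SE 0.31, adjusted p = 0.00616).

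Parp11 was 4.62 and 4.48 in NTC and 6.69, 6.48 and 6.18 in Adar1 KO, a difference of 1.90 (SE 0.23, adjusted p = 0.00014). Parp12 was 2.19 and 2.11 in NTC and 4.66, 3.89 and 3.51 in Adar1 KO, a difference of 1.87 (SE 0.39, adjusted p = 0.00613). Parp12 spread most among the Adar1 KO libraries, with replicate 1 highest. Parp10 was 4.56 and 4.78 in NTC and 5.71, 6.10 and 5.88 in Adar1 KO, the smallest difference of the 6 at 1.23 (SE 0.26, adjusted p = 0.00656). NTC macrophages replicate 2, on its own scale, was 5.39 for Parp9, 6.27 for Dtx3l, 5.43 for Parp14, 4.76 for Parp10, 4.50 for Parp11 and 2.25 for Parp12, and is not compared.

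The Adar1 KO effect was larger in macrophages than in progenitors for 5 of the 6 genes by the test of that difference, which called 13.6% of all genes. The differences between effects were 2.08 for Parp11 (SE 0.31, limma, Benjamini-Hochberg adjusted p = 0.00105), 1.91 for Parp12 (SE 0.53, adjusted p = 0.0353), 1.86 for Parp9 (SE 0.23, adjusted p = 0.000282), 1.33 for Dtx3l (SE 0.20, adjusted p = 0.00104) and 1.22 for Parp10 (SE 0.35, adjusted p = 0.0411). For Parp14 it was 1.14 (SE 0.41, adjusted p = 0.0923). The calls of Parp10 and Parp12 were the less firm, since 3 of the 6 genes were called when any of 7 libraries was left out in turn, namely Adar1 KO progenitors replicate 1 or 2, NTC progenitors replicate 1 or 3, Adar1 KO macrophages replicate 2, or NTC macrophages replicate 1 or 3.

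Differentiation itself came with higher levels of all 6. NTC macrophages were above NTC progenitors by 1.05 (Parp11) to 2.73 (Parp14), with all 6 called and no overlap, in a comparison that called 71.8% of all genes and left 79.3% without overlap. Adar1 KO sgRNA 1 macrophages were above their own progenitors by 2.55 (Parp10) to 4.24 (Parp12), again all 6, with 71.3% of all genes called. With most genes called, the count of 6 is not far from that background.

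The sgRNA 2 line had no control of its own set, so its levels are given by themselves. In progenitors Parp9 was 4.26, 4.52 and 4.04, Dtx3l 5.68, 5.65 and 5.64, and Parp14 3.57, 3.00 and 3.40 log2 CPM. In its 5 macrophage libraries Parp9 was 7.62, 7.63, 7.56, 7.56 and 7.62, and Dtx3l was 8.49, 8.37, 8.45, 8.49 and 8.50. Parp14 was 7.17, 6.97, 7.22, 7.24 and 7.10 there. Each gene was thus well apart between the stages, and macrophages were higher in all 6, where 81.3% of all genes were called. The stages did not overlap for any of the 6, nor for 77.5% of all genes, so the count of 6 is not far from that background. Parp12 differed most, by 4.71, followed by Parp14 (3.82), Parp9 (3.33), Parp11 (3.09), Dtx3l (2.80) and Parp10 (2.44), each a difference from the line's progenitors on the log2 scale.

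Of 11 other PARP genes tested between Adar1 KO sgRNA 1 and NTC macrophages, 2 were higher, Zc3hav1 by 1.07 (SE 0.14, adjusted p = 0.000287) and Tiparp by 0.98 (adjusted p = 0.0453). Zc3hav1 codes for an antiviral zinc finger protein of the family that lacks ADP-ribose transfer. Of 5 erasers, Adprh was higher by 0.40 (adjusted p = 0.014) and Macrod1 fell by 1.64 (adjusted p = 0.00875). None of 3 other Deltex genes was called. Of 12 interferon signalling genes 6 were higher, among them Irf7 by 5.61, Usp18 by 5.39 and Stat2 by 2.51, and Ifngr1 fell by 0.66 and Ifnar1 fell by 0.62. The comparison of macrophages called 21.8% of all genes. None of the genes on these lists was called between the progenitors, where 0.936% of all genes were.

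The last question was how the 6 genes responded to JAK inhibition in NTC and Adar1 KO macrophages. Without drug the Adar1 KO difference recurred in this separate set of libraries. The labels name the same guides and no further line, so this is not a repeat in lines made independently. At 0 uM all 6 genes were above NTC in every library, and 42.1% of all genes did not overlap between the genotypes. Of the 6, 5 were called beside 25.3% of all genes. The sixth, Parp12, differed by 1.31 (SE 0.54, limma, Benjamini-Hochberg adjusted p = 0.0751) and was called without Adar1 KO 0.4 uM replicate 2 (adjusted p = 3.22e-06). Without that library the SE for Parp12 was 0.19 and all 6 were called beside 30.8% of all genes. It was left out as a choice made after its values were seen.

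**Figure D3:**
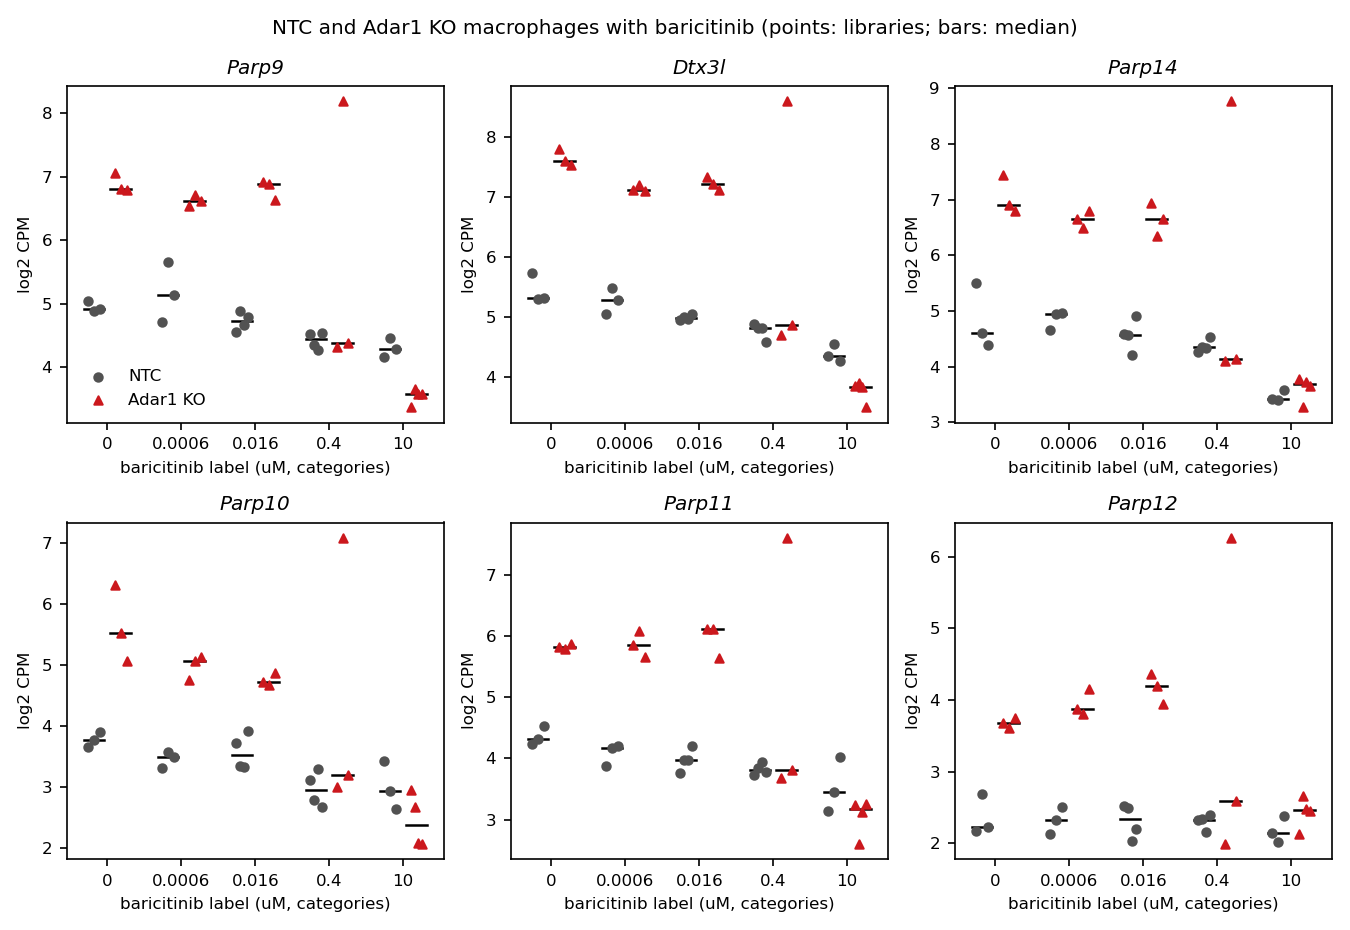
Log2 CPM of the 6 genes in NTC (grey circles) and Adar1 KO sgRNA 1 macrophages (red triangles) at 0, 0.0006, 0.016, 0.4 and 10 uM baricitinib. Points are libraries and bars the group median. The genotypes separate at the lowest 3 doses. At 0.4 uM the Adar1 KO points lie beside NTC except for replicate 2, at 8.18 for Parp9, and at 10 uM the Adar1 KO points of Parp9 and Dtx3l lie below NTC.

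Parp9 shows the course. In NTC it was 5.04, 4.89 and 4.92 log2 CPM at 0 uM, 4.71, 5.65 and 5.14 at 0.0006 uM, 4.54, 4.88, 4.67 and 4.78 at 0.016 uM, 4.52, 4.35, 4.26 and 4.53 at 0.4 uM, and 4.15, 4.46 and 4.29 at 10 uM. In Adar1 KO it was 7.06, 6.81 and 6.79 at 0 uM, 6.53, 6.71 and 6.62 at 0.0006 uM, 6.91, 6.88 and 6.63 at 0.016 uM, 4.32, 8.18 and 4.38 at 0.4 uM, and 3.37, 3.66, 3.58 and 3.58 at 10 uM. The genotypes were apart at the lowest 3 doses, side by side in 2 of 3 Adar1 KO libraries at 0.4 uM, and apart in the other order at 10 uM.

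Dtx3l took the same course. In NTC it was 5.74, 5.29 and 5.31 at 0 uM and 4.34, 4.55 and 4.26 at 10 uM. In Adar1 KO it was 7.80, 7.60 and 7.54 at 0 uM, 4.70, 8.59 and 4.87 at 0.4 uM, and 3.84, 3.89, 3.83 and 3.49 at 10 uM. All 4 Adar1 KO libraries at 10 uM lay below all 3 NTC libraries.

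Parp14 was 5.50, 4.60 and 4.39 in NTC and 7.45, 6.91 and 6.80 in Adar1 KO at 0 uM. At 10 uM it was 3.43, 3.40 and 3.59 in NTC and 3.78, 3.27, 3.72 and 3.64 in Adar1 KO. The genotypes overlapped at that dose. Parp12 moved least with the drug, at 2.18, 2.69 and 2.24 in NTC and 3.69, 3.62 and 3.74 in Adar1 KO without it, and 2.14, 2.02 and 2.39 in NTC and 2.14, 2.67, 2.49 and 2.45 in Adar1 KO at 10 uM.

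Parp10 was 3.65, 3.76 and 3.90 in NTC and 6.30, 5.53 and 5.06 in Adar1 KO at 0 uM. At 10 uM it was 3.42, 2.92 and 2.63 in NTC and 2.95, 2.67, 2.08 and 2.06 in Adar1 KO. Parp11 was 4.23, 4.31 and 4.53 in NTC and 5.82, 5.78 and 5.87 in Adar1 KO at 0 uM, and 3.14, 3.45 and 4.03 in NTC and 3.23, 2.60, 3.13 and 3.25 in Adar1 KO at 10 uM. Both genes were apart between genotypes without drug and overlapped at 10 uM.

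The lowest doses left the genotype difference in place. At 0.0006 uM all 6 genes were higher in Adar1 KO, by 1.45 (Parp9) to 1.86 (Dtx3l), with 29.0% of all genes called, and leaving out any of the 6 libraries of those groups lowered that count to 2 or 3. At 0.016 uM 5 of the 6 were higher, with 32.2% of all genes called, and Parp10 differed by 1.17 (SE 0.53, adjusted p = 0.0951). Without Adar1 KO 0.4 uM replicate 2 all 6 were called at both doses, with 33.8% and 36.9% of all genes. The genotypes did not overlap at either dose for any of the 6, nor for 43.7% and 43.0% of all genes.

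At 0.4 uM the outcome turned on that 1 library. With it the 6 genes differed by 1.21 to 1.46, none was called by limma, all 6 had an unadjusted p under 0.05, and 13.5% of all genes were called. Without it none was called either, none had an unadjusted p under 0.05, and 6.62% of all genes were called. The differences were then -0.25 to 0.12, with Parp9 at -0.07 (95% interval -0.40 to 0.26) and Dtx3l at 0.01 (-0.26 to 0.29). Leaving out Adar1 KO 0.4 uM replicate 1 or 3 instead gave 6 called genes. In replicate 2 interferon genes were high as well, with Ifnb1 at 6.02 log2 CPM against -2.78 (the lowest value of the set) and -2.29 in the others, and Irf7 at 10.52 against 0.70 and 3.31. Adar was 7.38 there against 4.12 and 4.21. Whether this library received the drug as labelled was not tested.

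At 10 uM none of the 6 was called between genotypes and none had an unadjusted p under 0.05 with all 33 libraries, while 45.3% of all genes were called. Without Adar1 KO 0.4 uM replicate 2, 3 of the 6 were lower in Adar1 KO, beside 50.6% of all genes. These were Parp9, which fell by 0.75 (SE 0.14, limma, Benjamini-Hochberg adjusted p = 7.73e-05), Dtx3l by 0.62 (SE 0.12, adjusted p = 8.79e-05) and Parp11 by 0.48 (SE 0.17, adjusted p = 0.0218). Parp9 and Dtx3l were the 2 of the 6 whose groups did not overlap, where 50.9% of all genes did not, so that count is below the background. Parp10 differed by -0.55 (adjusted p = 0.0588), Parp12 by 0.25 (adjusted p = 0.242) and Parp14 by 0.13 (adjusted p = 0.617). Against a share of 50.6%, 3 of 6 is at the background.

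**Figure D4:**
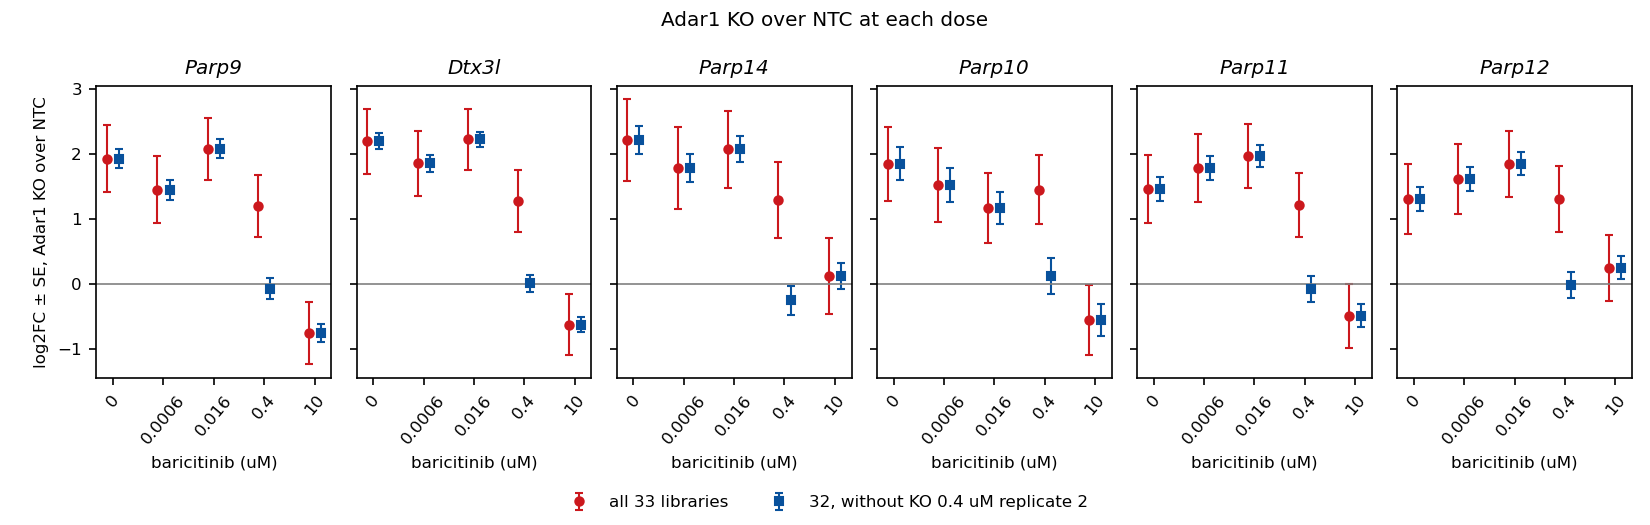
Log2 difference ± SE of Adar1 KO sgRNA 1 over NTC macrophages for the 6 genes at each baricitinib dose, fitted with all 33 libraries and with 32 (without Adar1 KO 0.4 uM replicate 2). At 0.4 uM the values are 1.21 to 1.46 with all libraries and -0.25 to 0.12 without that library.

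Within Adar1 KO, 10 uM against 0 uM lowered all 6 genes, in a comparison that called 65.8% of all genes. Dtx3l fell by 3.89 (SE 0.47, limma, Benjamini-Hochberg adjusted p = 4.47e-08), Parp14 by 3.45 (SE 0.59, adjusted p = 1.06e-05) and Parp9 by 3.34 (SE 0.48, adjusted p = 7.9e-07). Parp10 fell by 3.19, Parp11 by 2.77 and Parp12 by 1.25 (SE 0.51, adjusted p = 0.0323). None of the 6 overlapped between these doses, as for 64.4% of all genes. At 0.4 uM against 0 uM Dtx3l fell by 1.59 (SE 0.50, adjusted p = 0.0197), 1 of the 6, with 26.6% of all genes called. Without the library that stood apart all 6 were lower, with differences of -2.93 (Parp14) to -1.39 (Parp12), beside 32.8% of all genes.

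In Adar1 KO the lower doses changed the 6 genes less than 10 uM did. Libraries at 0.0006 uM did not overlap with 0 uM for 4 of the 6, as for 20.5% of all genes. Parp9, Parp14 and Dtx3l were lower there and Parp12 was higher. At 0.016 uM 3 of the 6 did not overlap, as for 25.5% of all genes, with Parp10 and Dtx3l lower and Parp12 higher. Parp12 ran from 3.62 to 3.74 log2 CPM at 0 uM, 3.81 to 4.15 at 0.0006 uM and 3.94 to 4.36 at 0.016 uM. At 0.0006 uM against 0 uM none of the 6 was called by limma and none had an unadjusted p under 0.05, with 2.34% of all genes called, and Dtx3l was lower without the library that stood apart (-0.52, adjusted p = 0.0193, 3.66% of all genes). At 0.016 uM against 0 uM none was called and none had an unadjusted p under 0.05, with 6.21% of all genes called. Without that library Parp10 (-0.88, adjusted p = 0.0289) and Dtx3l (-0.43, adjusted p = 0.0309) were lower, beside 10.1% of all genes.

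In NTC no dose gave a call of any of the 6 with all 33 libraries. Against 0 uM none was called by limma and none had an unadjusted p under 0.05 at 0.0006 uM (0% of all genes called, 345 with an unadjusted p under 0.05), at 0.016 uM (0%, 434 genes) or at 0.4 uM (0.00897%, 598 genes). Even so, some of the 6 were lower than at 0 uM without overlap. These were 2 at 0.0006 uM (Parp10 and Parp11), beside 13% of all genes without overlap. At 0.016 uM they were 3 (Parp9, Parp11 and Dtx3l), beside 10.5%. At 0.4 uM they were 4 (Parp9, Parp10, Parp11 and Dtx3l), beside 12%. At 10 uM none was called, 2 had an unadjusted p under 0.05, and 13.8% of all genes were called. The groups did not overlap there for 5 of the 6 and for 40.7% of all genes. Without Adar1 KO 0.4 uM replicate 2 in the fit Dtx3l fell by 0.67 at 0.4 uM (adjusted p = 0.00201, 0.629% of all genes called), and 5 of the 6 had an unadjusted p under 0.05 there. In that fit none was called at 0.0006 uM (0% of all genes) or 0.016 uM (0.153%), with 0 and 2 of the 6 at an unadjusted p under 0.05, and 5 were lower at 10 uM, beside 20.9% of all genes. Parp14 fell by 1.36 (SE 0.21, adjusted p = 5.1e-05), Dtx3l by 1.06, Parp11 by 0.82, Parp10 by 0.78 and Parp9 by 0.65, and Parp12 was at -0.19 (adjusted p = 0.535).

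The drug effect itself differed between genotypes at 10 uM. With all 33 libraries 4 of the 6 genes had a larger drop in Adar1 KO, beside 39.5% of all genes called. The differences between effects were -2.82 for Dtx3l (SE 0.69, limma, Benjamini-Hochberg adjusted p = 0.00197), -2.69 for Parp9 (SE 0.70, adjusted p = 0.00351), -2.41 for Parp10 (SE 0.78, adjusted p = 0.0161) and -1.95 for Parp11 (SE 0.72, adjusted p = 0.0331). Parp14 was at -2.09 (SE 0.86, adjusted p = 0.0559) and Parp12 at -1.06 (SE 0.74, adjusted p = 0.266). Without the library that stood apart all 6 were called, beside 44.7% of all genes. At 0.4 uM none of the 6 was called, none had an unadjusted p under 0.05, and 4.76% of all genes were called. Without that library all 6 were called there, at -2.47 (Parp14) to -1.33 (Parp12), beside 13.7% of all genes. These comparisons share their control libraries.

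Related genes did not all follow the drug. Between 10 uM and 0 uM in Adar1 KO 65.8% of all genes were called. There 2 of 11 other PARP genes were higher, Parp2 by 1.41 and Tnks2 by 0.62, while Parp3 fell by 1.31 and Parp1 fell by 0.42. All 3 other Deltex genes tested were lower, and Dtx2 fell by 3.25, Dtx3 fell by 2.63 and Dtx4 fell by 0.53. Of 13 interferon signalling genes 3 were higher and 7 lower. Adar fell by 4.61.

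Over the 33 baricitinib libraries the 6 genes moved together. Pearson r over the 15 pairs of genes ran from 0.85 (Parp10 with Parp12) to 0.99 (Parp9 with Dtx3l), with a median of 0.94. Over the 32 libraries without Adar1 KO 0.4 uM replicate 2 the range was 0.79 to 0.99. With group means removed from those 32, it was -0.21 to 0.56 with a median of 0.14, so the likeness lay mostly between groups. These values share libraries and scaling and are given as a description. Over the 27 libraries of macrophages, MLCs and microglia r ran from 0.59 to 0.87.

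The genes outside the 6 whose pattern over the 33 libraries was nearest to the mean of the 6 were Gm5431 (Pearson r 0.987), Mx1 (0.985), Fbxw17 (0.984), AI607873 (0.982) and Stat2 (0.982), among 11146 genes. Without Adar1 KO 0.4 uM replicate 2 they were H2-K1 (0.988), Irf7 (0.987), B2m (0.987), Gm5431 (0.985) and Lgals3bp (0.983), so 1 of the 5 stayed. Mx1 is an interferon-induced antiviral GTPase. Taken singly over these libraries, Parp9 and Dtx3l were each nearest to Stat2 (0.986 and 0.989), Parp10 to Mov10 (0.954), Parp11 to Gm5431 (0.984), Parp12 to Igtp (0.977) and Parp14 to Slfn4 (0.970). Without that library Parp12 was nearest to Ifi35 (0.971) and Parp14 to Slfn8 (0.968), and the nearest genes of the other 4 stayed. Over the 27 libraries of macrophages, MLCs and microglia the nearest to the mean of the 6 were Phf11b (0.968), Phf11d (0.958), Igtp (0.957), Ifi47 (0.952) and Zbp1 (0.950). Igtp and Ifi47 code for interferon-inducible GTPases.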

How the data were processed

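Bulk RNA-seq values were taken from 1 deposited table. The submitters' processing notes name FastQC, MultiQC, kallisto 0.46.0, edgeR, limma and GRCm39, and the authors turned transcript estimates into gene counts and deposited log2 CPM scaled by TMM. The prior count of 2 behind the depths is assumed. Of 29957 rows, 1 without a gene name was dropped. Columns were grouped by their lowest value (within 1e-04) into 6 sets, and no column was left unused. Group means were fitted per set in limma 3.58.1 (R 4.3.3, empirical Bayes with a trend) over genes above 1 CPM in at least 3 libraries, or 6 for the 27 libraries with brain cells, with Benjamini-Hochberg adjustment. These scripts were tested on simulated data. Tables and figures used Python 3.11.15. All 6 genes were named in every comparison, context genes by fixed lists (at most 4 values each) and by nearest correlation. Members, lists and tests were chosen with earlier results of these data known. Replicate numbers paired the samples in 2 of 27 comparisons checked (every pair's correlation above 0.1), day 4 cells over ER-Hoxb8 progenitors and Adar1 KO sgRNA 1 over NTC progenitors. Alternatives were quantile normalization, no filter, log2(CPM + 1), array weights, a replicate block, only the groups compared, each library left out, NTC macrophages replicate 2 on a rebuilt scale, ER-Hoxb8 MLCs of only GFPHox or WTHox names, and microglia without the YSWT names. Leaving out the pair of libraries that stood apart in other comparisons was chosen after seeing the data. Depth per library is not given in the sources used here. The value of 1 gene on the context lists is not reported here.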

Additional observations from a re-analysis of the deposited data

Results flagged for a closer look

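By Dixon's Q test, run only in groups of at least 4 libraries, a single library lay far from the others in 6 of 42 tests of a group and a gene. Chance gives about 1 in 20 for each test, but the tests share libraries and are not independent. Adar1 KO 0.4 uM replicate 2, in a group of 3, was outside these tests. Microglia replicate 8 accounted for 4 of the 6, as the lowest of 9 libraries for Parp9 (3.85 log2 CPM), Parp12 (1.45), Parp14 (-0.42) and Dtx3l (3.34). The others were the lowest BMD MLC library for Parp14, replicate 3 at 4.24, and the lowest Adar1 KO 10 uM library for Dtx3l, replicate 4 at 3.49.

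An effect differed between groups, by limma's test of the difference with Benjamini-Hochberg adjustment, in 11 cases. The change from macrophages in vitro to MLCs was larger for ER-Hoxb8 than for BMD cells for Parp9 by 2.05 and for Parp12 by 2.37 on the log2 scale. That ER-Hoxb8 change also spans a change of Cas9 label and line. The Adar1 KO effect was larger in macrophages than in progenitors for Parp9 by 1.86, Parp10 by 1.22, Parp11 by 2.08, Parp12 by 1.91 and Dtx3l by 1.33. The effect of 10 uM baricitinib in Adar1 KO minus that in NTC was -2.69 for Parp9, -2.41 for Parp10, -1.95 for Parp11 and -2.82 for Dtx3l.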

How the results depend on the processing

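No difference of a called gene changed sign under any alternative that was run. Among 78 such differences, 78 stayed past the threshold with log2(CPM + 1), 78 with array weights, 77 with a replicate block, 76 with quantile normalization and 68 with no filter, as did 629 of 717 with 1 library left out. Counts of the 6 genes moved as follows. BM monocytes over BM progenitors went from 0 to 1 with quantile normalization, 4 with array weights and 2 with only the groups compared. ER-Hoxb8 over BMD macrophages went from 0 to 1 with array weights. BMD MLCs over BMD macrophages went from 1 to 2 with quantile normalization, 2 with the replicate block, 4 with array weights and 2 with only the groups compared. The difference of brain changes went from 2 to 1 with no filter, 4 with the replicate block, 6 with array weights and 1 with only the WTHox libraries of ER-Hoxb8 MLCs. With no filter the Adar1 KO effect in macrophages minus progenitors went from 5 to 3, and Adar1 KO over NTC at 0.0006 uM from 6 to 3. In Adar1 KO, 0.4 over 0 uM went from 1 to 2 with quantile normalization, 6 with array weights and 0 with only the groups compared. Adar1 KO over NTC at 10 uM went from 0 to 3 with array weights and 2 with only the groups compared, and 10 over 0 uM in NTC from 0 to 5 with either. The difference of 0.4 uM effects went from 0 to 6 with array weights. The cause was not tested.

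With 1 library left out the counts ranged from 0 to 2 for ER-Hoxb8 over BM progenitors, day 4 cells over ER-Hoxb8 progenitors and BMD MLCs over BMD macrophages, 1 to 4 for the difference of brain changes, 3 to 6 for ER-Hoxb8 MLCs over ER-Hoxb8 macrophages, for the Adar1 KO effect in macrophages minus progenitors and for Adar1 KO over NTC at 0 uM, and 2 to 6 for Adar1 KO over NTC at 0.0006 uM and for the difference of 10 uM effects. They ranged from 0 to 6 for Adar1 KO over NTC at 0.4 uM, 0.4 over 0 uM in Adar1 KO and the difference of 0.4 uM effects, 0 to 3 for Adar1 KO over NTC at 10 uM, 0 to 1 for 0.0006 over 0 uM in Adar1 KO and 0.4 over 0 uM in NTC, 0 to 2 for 0.016 over 0 uM in Adar1 KO, and 0 to 5 for 10 over 0 uM in NTC. Without ER-Hoxb8 progenitors replicate 3 the count over BM progenitors was 2, and without replicate 2 that of day 4 cells was 2. Where a group fell to 1 library, it was assumed to vary like the others. In comparisons where samples share only a number the block moved the counts given above, and in the 2 paired comparisons it changed none. The block tied same-numbered libraries across all groups of a set. It was thus not a test of the pairs alone in those 2 comparisons, and their main tests ignored the pairing. With only WTHox libraries 15 of 20 called differences stayed past the threshold, and with only GFPHox libraries 18 of 20. With NTC macrophages replicate 2 on a rebuilt scale 17 of 17 did. Depth limits Parp14 and Parp12 most, at about 16.3 and 17.4 counts in their lowest libraries.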
